A study of Mus musculus with 130 samples.

Results

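Cyp2b9, Cyp2b13, Cyp2b10, Cyp2a4 and Cyp2a5 are 5 cytochrome P450 genes that lie within 946 kb of each other on mouse chromosome 7. They were chosen by name from results of the same data, namely their levels in 2% iron against 50 ppm, in 2% iron against chow and in chow against 50 ppm, so their values in those comparisons are given as description without a test. They are 5 of the 35274 genes in the diet tables and of the 35711 in the strain tables, all were matched by symbol to an Ensembl identifier, and all 5 passed the filter on low counts in each. Cyp2b13 was at 2 counts or fewer in every chow and 50 ppm library. With the filter applied to the chow and 50 ppm libraries alone, Cyp2b9 and Cyp2a4 did not pass it either. In the diet tables Cyp2b13, Cyp2b9 and Cyp2a4 thus passed that filter through the diets in which they were higher.

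The study measured liver RNA by poly(A) sequencing in 130 libraries from male mice. In a diet study, 15 C57BL/6J mice, 3 per diet, received standard chow, a sufficient iron diet (50 ppm), an elevated iron diet (500 ppm), or 1 of 2 iron-overload diets, both of 2% carbonyl iron (20000 ppm) and the second with cellulose named as its fibre source. In a strain panel, 115 mice of 114 strains ate chow for 4 weeks and then the 2% carbonyl iron diet for 6 weeks, so all panel mice carried the iron load and the panel had no low-iron group. The panel held 56 BXD strains (bred from C57BL/6J and DBA/2J), 20 AXB/BXA strains (from A/J and C57BL/6J), 4 BXH strains, 3 CXB strains and 31 other inbred strains, each represented by 1 mouse except 129X1/SvJ with 2. RNA came from a piece of the large lobe of each liver, which is a mixture of cells, so fewer cells of a type and less RNA per cell cannot be told apart.

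These enzymes are membrane-bound monooxygenases of the endoplasmic reticulum that take electrons from cytochrome P450 reductase (Por) and insert oxygen into drugs, steroids and other lipophilic compounds. Cyp2b10 is the standard target gene of the constitutive androstane receptor CAR (Nr1i3), and Cyp2a5, the mouse coumarin hydroxylase, responds to CAR and to the oxidative stress factor NRF2. Cyp2b9, Cyp2b13 and Cyp2a4, a steroid hydroxylase, are female-predominant genes of adult mouse liver that the pulsatile male pattern of growth hormone, acting through STAT5, normally keeps low in males. All mice here were labelled male, and the 4 Y-linked genes of a fixed list summed to between 163 and 191 CPM (counts scaled to library size) in the 15 diet livers.

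In the GRCm38 annotation all 5 genes were on the plus strand. Cyp2b10 (ENSMUSG00000030483) came first at chr7:25897620-25926624, followed by Cyp2b13 (ENSMUSG00000040583) at chr7:26061497-26096197 and Cyp2b9 (ENSMUSG00000040660) at chr7:26173411-26210661. Cyp2a4 (ENSMUSG00000074254) followed at chr7:26307169-26315088 and Cyp2a5 (ENSMUSG00000005547) at chr7:26835305-26843548. The genes form close pairs, which matters for every value that follows. The coding sequences of Cyp2a4 and Cyp2a5 were 98.5% identical, differing at 23 of 1485 positions. Those of Cyp2b9 and Cyp2b13 were 92.7% identical, differing at 108 of 1476 positions, while Cyp2b10 was 86.2% identical to Cyp2b9 and 87.1% to Cyp2b13. Of the distinct 31-base words in the transcripts of each gene, 26.1% for Cyp2b9, 40.8% for Cyp2b13, 19.4% for Cyp2b10, 58.9% for Cyp2a4 and 54.6% for Cyp2a5 also occurred in another gene, so reads from those stretches had to be apportioned.

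**Figure D1:**
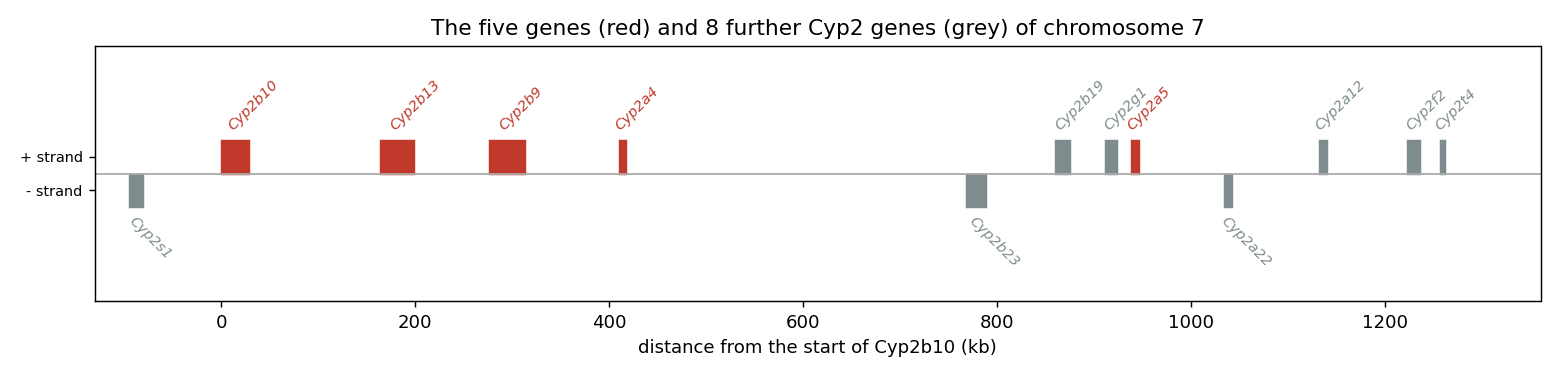
Map of the 5 genes and their annotated Cyp2 neighbours along chromosome 7, drawn to scale as distance in kb from the start of Cyp2b10 (x axis). Of the 5, Cyp2b10, Cyp2b13 and Cyp2b9 lie together, Cyp2a4 follows them, and Cyp2a5 lies farther along. The neighbours Cyp2b23 and Cyp2b19 lie between Cyp2a4 and Cyp2a5. The span from the start of Cyp2b10 to the end of Cyp2a5 is 946 kb.

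Stretches of 60 coding bases show how few letters separate each close pair. The first pair is positions 596 to 655 of the coding sequences of Cyp2a4 and Cyp2a5, counted from the first base of the start codon, with the 4 differing bases in capitals. The second pair is positions 1056 to 1115 of Cyp2b9 and Cyp2b13, with 13 differing bases in capitals.
Cyp2a4: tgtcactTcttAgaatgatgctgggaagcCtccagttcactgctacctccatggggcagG
Cyp2a5: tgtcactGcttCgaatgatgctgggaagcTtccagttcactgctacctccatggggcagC
Cyp2b9: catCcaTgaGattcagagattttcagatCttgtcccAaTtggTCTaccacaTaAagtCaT
Cyp2b13: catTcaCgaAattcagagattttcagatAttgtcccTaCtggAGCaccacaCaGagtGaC

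The sequences before the start sites are shown because Cyp2b9 and Cyp2b13, nearly identical there, were at very different levels, as were Cyp2a4 and Cyp2a5. In RefSeq windows on GRCm38 of 250 bases before to 50 bases after the start, Cyp2b9 and Cyp2b13 differed at 2 of 300 positions (99.3% identity) and Cyp2a4 and Cyp2a5 were 97.7% identical. Cyp2b10 was 70.1% identical to Cyp2b9. Of these windows, the bases before both the RefSeq and the GENCODE start are printed in the plus-strand direction, for Cyp2b9 at chr7:26173159-26173408, for Cyp2b13 at chr7:26061245-26061494, for Cyp2a4 at chr7:26306942-26307168 and for Cyp2a5 at chr7:26835089-26835304. The GENCODE starts of Cyp2a4 and Cyp2a5 lie before the RefSeq starts, so the last 23 and 34 bases before the RefSeq start are not printed for them. Capitals mark the bases that differ, or have no counterpart, within a pair.
Cyp2b9: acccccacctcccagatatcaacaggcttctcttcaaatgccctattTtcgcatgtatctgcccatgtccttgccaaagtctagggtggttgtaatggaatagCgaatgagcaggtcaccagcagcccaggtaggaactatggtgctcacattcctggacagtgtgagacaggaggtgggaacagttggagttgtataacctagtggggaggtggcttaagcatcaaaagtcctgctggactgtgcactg
Cyp2b13: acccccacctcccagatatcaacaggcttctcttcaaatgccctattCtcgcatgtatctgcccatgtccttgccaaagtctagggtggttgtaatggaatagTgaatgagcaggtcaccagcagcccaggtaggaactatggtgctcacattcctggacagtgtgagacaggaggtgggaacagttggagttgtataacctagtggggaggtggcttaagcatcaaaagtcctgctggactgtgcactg
Cyp2a4: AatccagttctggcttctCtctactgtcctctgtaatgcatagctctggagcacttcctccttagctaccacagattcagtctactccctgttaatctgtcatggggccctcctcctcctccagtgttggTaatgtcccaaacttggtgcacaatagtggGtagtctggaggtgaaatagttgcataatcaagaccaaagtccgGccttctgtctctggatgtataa
Cyp2a5: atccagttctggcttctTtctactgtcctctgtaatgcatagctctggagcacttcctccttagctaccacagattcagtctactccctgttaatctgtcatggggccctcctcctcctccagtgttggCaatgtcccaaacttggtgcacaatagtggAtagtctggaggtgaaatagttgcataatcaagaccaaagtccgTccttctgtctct

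Short motifs were searched on both strands of the 300-base windows, and their positions are counted from the RefSeq start. The hexamer AGGTCA, the core of many nuclear receptor sites, began 138 bases before the start in both Cyp2b9 and Cyp2b13, and its reverse TGACCT lay 30 bases after the start in Cyp2a4 and 29 in Cyp2a5. 16.3% of 32851 RefSeq promoter windows held this hexamer. Cyp2a4 and Cyp2a5 also held GTTAAT, part of the HNF1 site (160 and 161 bases before the start; 7.10% of all windows), and TATAAA (28 and 29 bases before; 13.6% of all windows), the latter at or past the end of the printed letters. No window of the 5 genes held the STAT5 motif TTCNNNGAA (8.30% of all windows) or the FOXA motif TGTTTGC (5.07%), and the Cyp2b10 window held none of the searched letters. A match or its lack describes these letters in this window only.

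Library size was 10420708 to 20357169 estimated counts in the diet study and 9407880 to 20572879 in the panel. No 2 libraries held the same values. Replicate 2 of the 500 ppm group, the deepest diet library, stood apart from the other 2 mice on that diet in the genes described here. In the panel, the Y-linked genes summed to 3.94 CPM in the library labelled BXD65/RwwJ and to at least 118 CPM in every other. Hepatocyte markers were present in each diet (9 of 9 above 1 CPM), and none of 10 exocrine pancreas markers exceeded a group mean of 1 CPM, their sums reaching at most 1.37 CPM. The labels say that each diet group is 3 mice, and no batch is given.

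Cyp2b9 was near zero in 8 of the 9 C57BL/6J livers on chow, 50 ppm or 500 ppm iron and was high in all 6 livers on 2% iron. Levels are in TPM (relative transcript abundance), a scale corrected for transcript length and library size. The 3 chow livers held 0.054, 0.48 and 0.13 TPM, the 50 ppm livers 0.076, 1.65 and 0.97 TPM, and the 500 ppm livers 0.52, 81.7 and 0.080 TPM. With 2% iron the values were 116, 65.7 and 76.1 TPM, and with 2% iron and cellulose 152, 174 and 192 TPM. The single 500 ppm liver at 81.7 TPM therefore lay inside the range of the 2% group, and every cellulose liver lay above every 2% liver. The mean was 85.8 ± 26.4 TPM in 2% iron (SD, n = 3) against 0.898 ± 0.791 TPM in 50 ppm, a ratio of 95.5, and 390.6 times the chow mean of 0.220 TPM. These ratios rest on few counts in the low group: the log2 change moved from 6.56 to 7.32 without 50 ppm replicate 2, and against chow from 8.44 to 9.68 without chow replicate 2.

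Cyp2a4 had the same arrangement of high and low livers. It was at 0.60, 0.35 and 0.32 TPM in chow and at 0.10, 0.22 and 0.42 TPM in 50 ppm iron. The 500 ppm livers held 0.20, 89.9 and 0.93 TPM, the 2% livers 30.9, 16.1 and 27.2 TPM, and the cellulose livers 67.3, 68.5 and 113.3 TPM. The high 500 ppm liver was replicate 2 again, this time above the range of the 2% group and within that of the cellulose group. Mean Cyp2a4 was 24.7 ± 7.67 TPM in 2% iron and 0.244 ± 0.159 TPM in 50 ppm (SD, n = 3 each), a ratio of 101.

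Cyp2b13 was the least abundant of the 5 genes in every chow, 2% and cellulose liver. It was listed at 0 in all 3 chow livers, at 0.060 to 0.077 TPM in the 50 ppm livers and at 0, 29.9 and 0.080 TPM in the 500 ppm livers. The 2% livers held 1.32, 0.463 and 0.708 TPM, from only 26.1, 8.30 and 14.4 estimated counts, and the cellulose livers held 6.14, 6.68 and 11.4 TPM. The highest value of the diet study was again in 500 ppm replicate 2, from 1092 counts, above every cellulose liver. Against a floor of 3 counts per chow library, mean Cyp2b13 in 2% iron was at least 5.59-fold higher on the CPM scale. No ratio is given against 50 ppm, where each library held 1 or 2 counts.

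Cyp2b10, the CAR target, was high in chow as well as in 2% iron. The chow livers held 16.6, 54.1 and 7.09 TPM, the 50 ppm livers 0.855, 0.776 and 0.053 TPM, and the 500 ppm livers 1.44, 11.8 and 0.235 TPM. The 2% livers held 27.4, 17.6 and 19.5 TPM and the cellulose livers 13.3, 17.5 and 14.5 TPM. All 3 chow, all 3 2% and all 3 cellulose livers lay above all 3 livers on 50 ppm, and the chow range enclosed all 6 values on 2% iron. Means were 25.9 ± 24.9 TPM in chow, 0.561 ± 0.442 TPM in 50 ppm and 21.5 ± 5.23 TPM in 2% iron (SD, n = 3 each), so chow was 46.2 times and 2% iron 38.3 times the 50 ppm mean. Without chow replicate 2 the log2 change of chow against 50 ppm moved from 6.21 to 4.99. Without 50 ppm replicate 2 it moved to 7.22, and that of 2% iron against 50 ppm from 5.63 to 6.65. The direction between 2% iron and chow turned with chow replicate 2, the log2 change being -0.57 with it and 0.63 without it, and was 0.16 and 0.18 in limma on the log2 TPM scales.

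Cyp2a5 was the most abundant of the 5 genes in every chow and 50 ppm liver. It was at 264, 570 and 289 TPM in chow, 109, 89.8 and 125 TPM in 50 ppm, and 67.5, 83.9 and 80.5 TPM in 500 ppm iron. The 2% livers held 70.4, 43.4 and 88.2 TPM and the cellulose livers 64.9, 92.8 and 117 TPM. Every chow liver exceeded every liver on another diet, and the ranges of the other 4 diets largely overlapped. The chow mean was 374 ± 170 TPM (SD, n = 3), 3.47 times the 50 ppm mean, and the 2% mean of 67.3 ± 22.6 TPM was 0.180 of the chow mean and 0.624 of the 50 ppm mean. The 500 ppm mouse that was high in the other 4 genes had a Cyp2a5 level close to that of replicate 3.

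**Figure D2:**
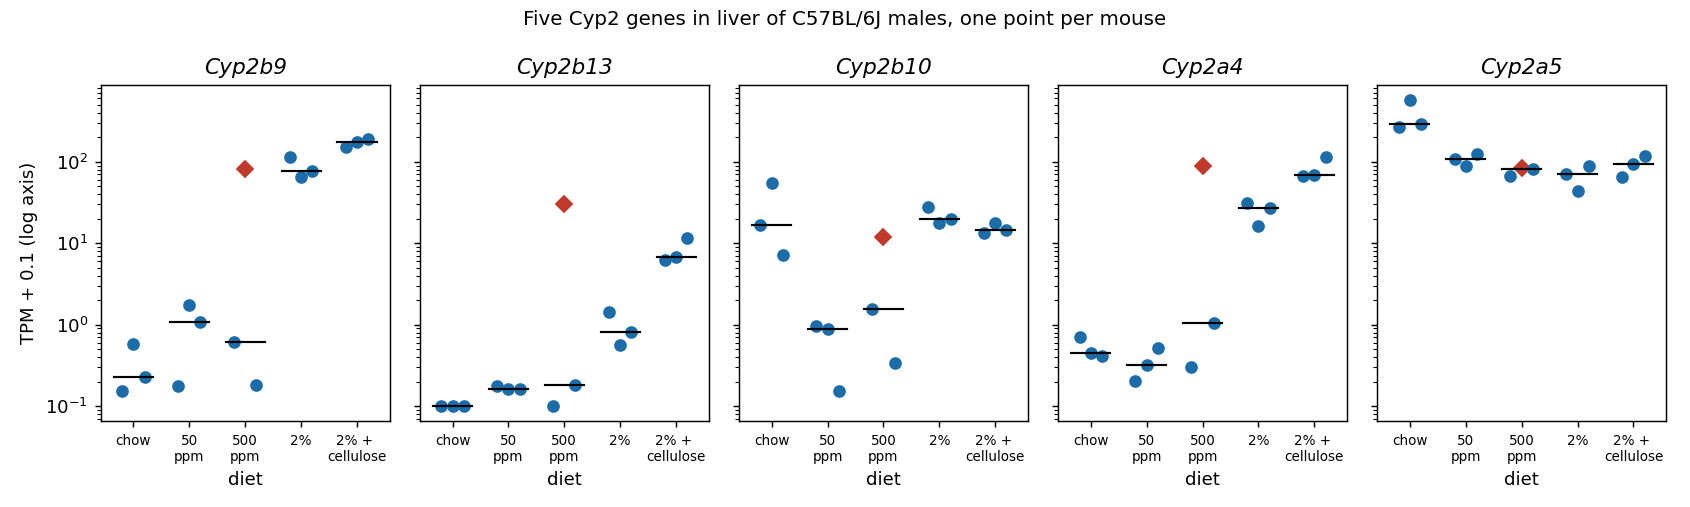
Level of each of the 5 genes (y axis, TPM + 0.1, log axis) in each C57BL/6J liver by diet (x axis); points are mice, black lines are group medians, and the red diamond is 500 ppm replicate 2. Cyp2b9, Cyp2b13 and Cyp2a4 are low in chow, 50 ppm and the other 500 ppm livers and higher in both 2% groups, Cyp2b10 is lowest in the 50 ppm livers and the other 500 ppm livers, and Cyp2a5 is highest in chow.

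The balance within each close pair differed between diets. Cyp2a4 made up 0.061 to 0.331% of the summed TPM of Cyp2a4 and Cyp2a5 in chow and 50 ppm livers, 23.6 to 30.5% in 2% iron and 42.5 to 50.9% with cellulose. In 500 ppm replicate 2 it was 51.7%, against 0.297% and 1.15% in the other mice on that diet. Cyp2a5 was thus the higher of the pair in every liver but 500 ppm replicate 2 and 1 cellulose liver. Cyp2b9 exceeded Cyp2b13 in every 2% liver by 87.9 to 141.9 times, in every cellulose liver by 16.8 to 26.1 times, and in 500 ppm replicate 2 by 2.73 times. These shares rest on how reads from the shared stretches were apportioned. Summed over each pair or trio, which removes that step within it, Cyp2b9, Cyp2b10 and Cyp2b13 together were 1.53 ± 0.836 TPM in 50 ppm and 108 ± 32.02 TPM in 2% iron, whereas Cyp2a4 and Cyp2a5 together were 108 ± 17.6 and 92.04 ± 29.07 TPM (SD, n = 3 each).

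The comparison of the cellulose diet with 500 ppm iron contrasts none of the mice on which the genes were chosen, so it was tested. The filter, normalisation and spread of the fit were still taken over all 5 diets, those mice included. With all 6 mice, 0 of the 5 genes passed an adjusted p of 0.05 in edgeR's quasi-likelihood test (0 also at an unadjusted p under 0.05), against 25.8% of the 13560 genes tested. DESeq2 called 0 of the 3 genes for which it gave an adjusted p, and gave none for Cyp2b13 and Cyp2a4. With limma on log2(TPM + 1), 3 passed, Cyp2b9 (5.08, adjusted p = 0.00755), Cyp2a4 (3.78, adjusted p = 0.0299) and Cyp2b10 (2.24, adjusted p = 0.0485), and on log2(TPM + 0.1) Cyp2b9 and Cyp2a4 passed. Cyp2b9 had a log2 change of 2.47 with a standard error of 1.17 (adjusted p = 0.137 in edgeR), with all 3 cellulose livers above all 3 on 500 ppm. With the 2 groups filtered and fitted alone, its standard error was 1.56 (adjusted p = 0.305 in edgeR). Cyp2b10 was 1.75 ± 0.813 (SE, edgeR adjusted p = 0.131), likewise without overlap. The values were 1.25 for Cyp2a4, -0.51 for Cyp2b13 and 0.19 for Cyp2a5, with adjusted p of 0.408, 0.788 and 0.701 in edgeR.

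The number of genes that passed depended on 500 ppm replicate 2 and on the scale of the test. That mouse stood out through these same genes, so the values without it are a description. Without it 4 of the 5 genes had an adjusted p under 0.05 in edgeR, against 28.9% of 13821 genes tested. The log2 change was then 9.14 for Cyp2b9 (SE 0.690), 6.93 for Cyp2a4 (SE 0.471), 4.10 for Cyp2b10 (SE 0.921) and 0.20 for Cyp2a5 (SE 0.374). The 7.17 of Cyp2b13 (SE 0.687) is set against 2 livers at 0 and 0.080 TPM, so its size depends on the prior count of the fit. The left-out mouse had the highest summed female-biased genes of its group (766 CPM) and the lowest male-biased sum (10432 CPM). That male-biased sum was near the 11113 and 11312 CPM of 50 ppm replicates 2 and 3, which were low in Cyp2b9 and Cyp2a4. The macrophage and erythroid marker sums of the left-out mouse (264 and 150 CPM) were the highest of its group. Macrophage markers reached 239 CPM in a 50 ppm liver, and erythroid markers 137 CPM in a chow liver. The Y-linked sum of the left-out mouse (174 CPM) lay within the range of the other diets. The part of these differences in its values was not tested.

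**Figure D3:**
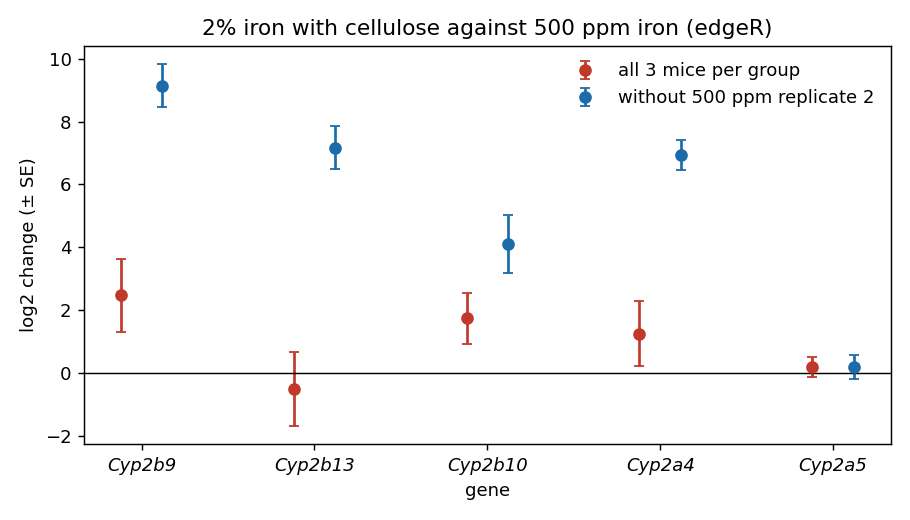
Log2 change of each of the 5 genes, cellulose with 2% iron against 500 ppm iron (y axis; genes on the x axis; error bars are the standard error of the edgeR fit), with all mice and without 500 ppm replicate 2. Leaving that mouse out moves Cyp2b9 from 2.47 to 9.14, Cyp2b13 from -0.51 to 7.17 and Cyp2a4 from 1.25 to 6.93, and leaves Cyp2a5 near 0.2.

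Between 500 ppm and 50 ppm iron, which shares the 50 ppm mice with the choice of the genes, edgeR called 0 of the 5 genes and 0% of the 13560 tested (428 had an unadjusted p under 0.05, and DESeq2 called 2). 4 of the 5 genes had an unadjusted p under 0.05 with all mice and 0 without 500 ppm replicate 2. With these 2 groups filtered and fitted alone, Cyp2b13 and Cyp2a4 were not tested, and the other 3 had an unadjusted p under 0.05. The log2 changes of 5.04 for Cyp2b9 and 7.10 for Cyp2b13 became -1.64 and -0.59 without that mouse, and the 7.07 for Cyp2a4 became 1.38.

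Cyp2b9, Cyp2b13 and Cyp2a4 were higher in every liver on the cellulose diet than in any on the other 2% diet, yet these differences did not pass the test. edgeR called 0 of the 5 genes (0 also at an unadjusted p under 0.05; in DESeq2 0 of the 3 with an adjusted p) and 11 of 13560 genes, 0.0811%, of which 1 was higher and 10 lower with cellulose. The 2% mice are among those on which the genes were chosen. Cyp2b13 was 8.08 ± 2.901 TPM with cellulose and 0.8288 ± 0.4388 TPM without (SD, n = 3 each), a log2 change of 3.21 (SE 1.496, adjusted p = 0.395, edgeR). Cyp2a4 was 1.66 (adjusted p = 0.544), Cyp2b9 0.94 (adjusted p = 0.771), Cyp2a5 0.49 (adjusted p = 0.561) and Cyp2b10 -0.47 (adjusted p = 0.836). With the spread estimated from those 6 mice alone, Cyp2b13 passed (adjusted p = 0.0316). Cyp2b10 was the exception in direction, at 15.1 ± 2.18 TPM with cellulose and 21.5 ± 5.23 TPM without.

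Other genes of the same pathways were counted from fixed lists, beside the shares of all genes called, 15.7% in 2% iron against 50 ppm, 22.8% in 2% iron against chow and 0.391% in chow against 50 ppm. Of 18 tested genes that are male-biased in liver, 15 fell and 0 rose in 2% iron against 50 ppm (median log2 change -1.80, against 0.01 over all genes). Among them were the major urinary protein gene Mup7 (log2 change -8.29, adjusted p = 0.000489, edgeR) and the fatty acid hydroxylase Cyp4a12a (-3.93, adjusted p = 0.000144). Of 21 other female-biased genes, 1 rose (Fmo2, a flavin monooxygenase, 1.79) and 1 fell (Srd5a1, steroid 5-alpha reductase, -1.57), with a median of 0.82. In 2% iron against chow 17 of 18 male-biased genes fell, and 6 of the 21 female-biased genes rose and 3 fell, while in chow against 50 ppm no gene of either list passed. With cellulose against 500 ppm, 15 of 18 male-biased genes fell, and 2 female-biased genes rose and 1 fell; without 500 ppm replicate 2 these counts were 15, 8 and 1. The summed male-biased genes ranged from 10432 to 33769 CPM over the chow, 50 ppm and 500 ppm livers, from 1720 to 2505 CPM in 2% iron and from 769 to 807 CPM with cellulose.

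Cyp2b10 and Cyp2a5 were also set beside 23 other targets of CAR and of the related receptor PXR. In chow against 50 ppm 7 of these rose and 0 fell, while in 2% iron against 50 ppm 1 rose (Gstm3, a glutathione transferase, 1.59) and 2 fell (the carboxylesterase Ces2a, -1.46, and Aldh1a1, -0.89), a share of 13.04% near the 15.7% of all genes. In 2% iron against chow 0 rose and 13 fell. With cellulose against 500 ppm 5 rose and 5 fell, and 4 and 5 without 500 ppm replicate 2. Nr1i3, which encodes CAR itself, was 139 ± 43.6 CPM in 2% iron and 268 ± 35.9 CPM in 50 ppm (SD, n = 3 each; log2 change -0.95, adjusted p = 0.0105, edgeR). In the same 2% livers Cyp2b10, described without a test, was 38.3 times its 50 ppm mean. A link between Nr1i3 RNA and Cyp2b10 in these livers was not tested. For Nr1i3 with cellulose against 500 ppm the log2 change was -0.61 (adjusted p = 0.0518), and -0.77 without 500 ppm replicate 2 (adjusted p = 0.0209). Por did not pass in any of these comparisons, with log2 changes of -0.10, -0.59 and 0.49 in 2% against 50 ppm, 2% against chow and chow against 50 ppm.

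Of 20 NRF2 targets, the pathway linked with Cyp2a5, 6 rose and 0 fell in 2% iron against 50 ppm, among them the heme oxygenase Hmox1 (2.36, adjusted p = 0.00842, edgeR) and the quinone reductase Nqo1 (1.46, adjusted p = 0.00596). In cellulose against 500 ppm 9 rose and 0 fell, in chow against 50 ppm 4 rose and 0 fell, and in 2% iron against chow 4 rose and 3 fell. In the same order Cyp2a5 had log2 changes of -0.88 (SE 0.326, not tested), 0.19 (SE 0.323, not passing), 1.85 (SE 0.330, not tested) and -2.73 (SE 0.342, not tested). Of 11 growth hormone signalling genes, 2 fell in 2% iron against 50 ppm, the receptor Ghr (-0.82) and Igfals (-0.78).

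The other Cyp2 genes of the same stretch of chromosome 7 differed among themselves. Of 8 annotated neighbours, 4 were abundant enough to test. Cyp2a22 was 36.6 ± 11.5 CPM with cellulose and 9.32 ± 10.99 CPM in 500 ppm (SD, n = 3 each) and rose (log2 change 1.91, adjusted p = 0.0389, edgeR). Cyp2f2, which lies farther along, fell by 1.73 (adjusted p = 0.000111) there and by 0.72 in 2% iron against 50 ppm (adjusted p = 0.0228). Cyp2a12 was 0.01 and 0.03 in the same comparisons (adjusted p = 0.957 and 0.908), and Cyp2g1, under 1 CPM in those diets, did not pass in either. In 2% iron against chow, Cyp2f2 (-1.41), Cyp2a12 (-0.55) and Cyp2g1 (-2.49) fell, next to the description of Cyp2a5 at -2.73 and of Cyp2b9 at 8.44.

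Markers of some other cell types moved with the same diets. All 9 Kupffer cell markers rose in 2% iron against 50 ppm and in cellulose against 500 ppm. Their sum was 129 to 264 CPM in chow, 50 ppm and 500 ppm livers, 572.3 to 609.5 CPM in 2% iron and 569 to 858 CPM with cellulose. Erythroid markers summed to 63.3 to 150 CPM in the first 3 diets, 323 to 479 CPM in 2% iron and 168 to 439 CPM with cellulose. Of 6 tested, 5 rose and 1, Alas2 (-1.51), fell in 2% iron against 50 ppm. Pericentral hepatocyte genes, of the zone in which many P450 enzymes are made, summed to 5892 to 10131 CPM in the first 3 diets, 4465 to 4928 CPM in 2% iron and 3901 to 4348 CPM with cellulose. Of these 12 genes, 4 fell, 7 did not pass and 1, Slc1a4 (2.74), rose in 2% iron against 50 ppm. With cellulose against 500 ppm 8 fell, 3 did not pass and 1 rose. Other lists changed less in 2% iron against 50 ppm. There 1 of 8 stellate, 1 of 7 sinusoidal endothelial, 1 of 6 lymphocyte and 0 of 4 cholangiocyte markers rose, and 0 fell. Of 12 periportal genes 1 rose and 2 fell, and of 9 hepatocyte markers 0 rose and 3 fell. Over all genes 15.7% passed in 2% iron against 50 ppm and 25.8% in cellulose against 500 ppm. The part of these cell type markers in the values of the 5 genes was not tested.

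All 114 panel strains carried the 2% iron load, and the 5 genes spanned wide ranges among them. Cyp2b9 ran from 0.118 TPM in 129X1/SvJ over a median of 178 to 386 TPM in A/J, and 86 of 114 strains exceeded 100 TPM. Its near-zero strains were 129X1/SvJ (0.118 TPM, the mean of 2 mice), BTBR T<+> tf/J (0.305 TPM) and LP/J (0.323 TPM). BALB/cByJ (382 TPM) and BXA2/PgnJ (357 TPM) followed A/J at the top. Cyp2b13 was listed at 0 in DBA/2J and BXH14/TyJ, had a median of 29.9 TPM and reached 256.4 TPM in CE/J, with 38 strains below 10 TPM.

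Cyp2b10 was below 10 TPM in most strains. It ran from 0.149 TPM in I/LnJ over a median of 6.69 to 86.0 TPM in CXB2/ByJ, and 75 of 114 strains were below 10 TPM. With no low-iron group in the panel, these levels do not show whether Cyp2b10 changed with iron in a strain. Cyp2a4 ran from 0.262 TPM in BXH14/TyJ over a median of 151 to 1020 TPM in BXD71/RwwJ. Cyp2a5 ran from 8.39 TPM in NON/ShiLtJ over a median of 416.8 to 2687 TPM, also in BXD71/RwwJ, and 90 strains exceeded 100 TPM. 129X1/SvJ, lowest in Cyp2b9, held 394 and 116 TPM of Cyp2a4 in its 2 mice.

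**Figure D4:**
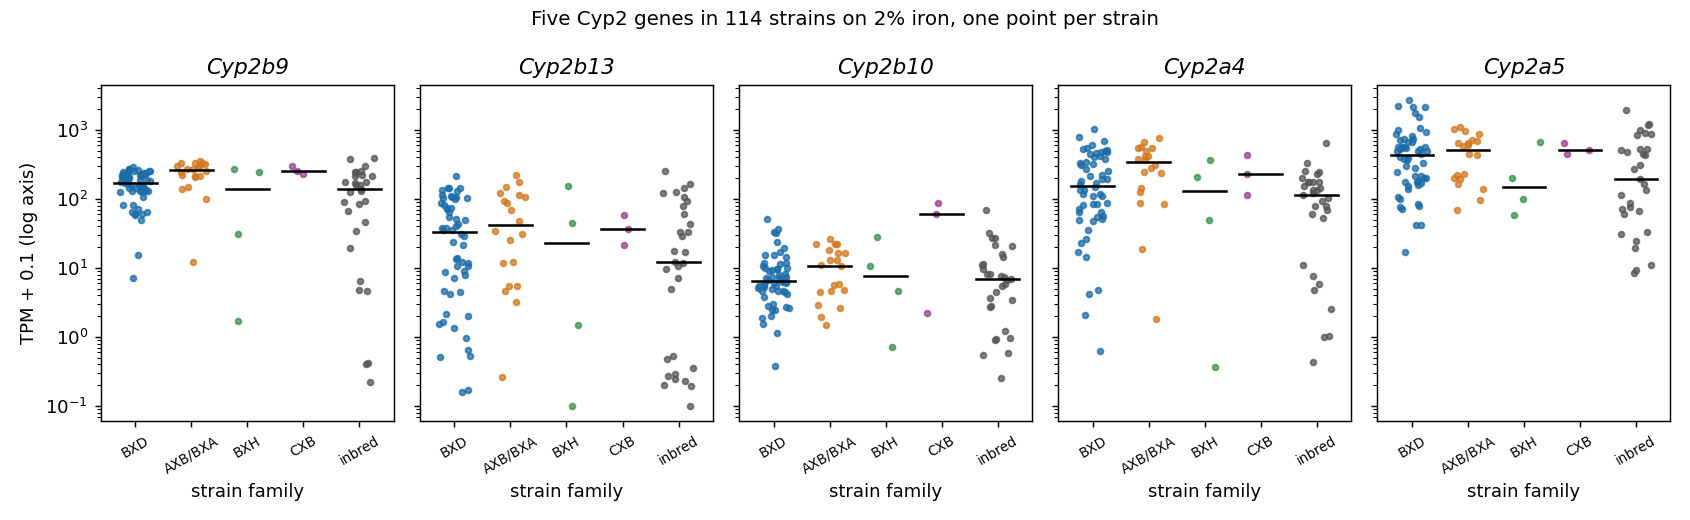
Level of each of the 5 genes (TPM + 0.1, log axis) in 114 strains on 2% iron, by family; points are strains and black lines are family medians. Cyp2b13 and Cyp2a4 have a long run of low strains below the main group in the BXD, AXB/BXA and inbred families, and Cyp2b10 is below 10 TPM in 75 strains.

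The spread between strains exceeded the spread between C57BL/6J mice within the 2 iron-overload diets. The SD of log2 CPM between strains was 2.00 for Cyp2b9, 3.11 for Cyp2b13, 1.64 for Cyp2b10, 2.50 for Cyp2a4 and 1.81 for Cyp2a5, against a median of 0.346 over 13410 genes. The pooled SD within the 2% and cellulose groups of C57BL/6J was 0.329, 0.594, 0.179, 0.474 and 0.510 in the same order. The 500 ppm group, in which Cyp2b9 ran from 0.080 to 81.7 TPM and Cyp2a4 from 0.20 to 89.9 TPM, is not in that SD. By this SD Cyp2b13 ranked 19th, Cyp2a4 57th, Cyp2b9 135th, Cyp2a5 192nd and Cyp2b10 238th of those genes. With 1 mouse per strain, strain and mouse cannot be told apart for a single value: the 2 mice of 129X1/SvJ held 0.45 and 3.88 log2 CPM of Cyp2b10, 9.16 and 7.57 of Cyp2a4, and 8.12 and 6.10 of Cyp2a5.

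By a mixture fit on the log2 CPM scale, Cyp2b13 and Cyp2a4 were each split into 2 groups of strains. A split needed a better fit than 1 group (gain in BIC above 10) and separated groups (Ashman's D above 3). Cyp2b9 had a larger gain (115.8, against 22.2 for Cyp2b13 and 43.5 for Cyp2a4) but a D of 1.89. Its strains were therefore not split by its own level. The groups of Cyp2b13 and of Cyp2a4 met at their edges. The lowest high strain held 4.07 TPM of Cyp2b13 and the highest low strain 4.49 TPM, and for Cyp2a4 these were 26.002 and 23.03 TPM. Cyp2b13 was high in 88 strains (median 43.8 TPM) and low in 26 (median 0.395 TPM). Cyp2a4 was high in 96 strains (median 193.35 TPM) and low in 18 (median 4.36 TPM). Both were high in 86 strains and both low in 16, while 10 strains were low for Cyp2b13 alone and 2, NOD/ShiLtJ and NON/ShiLtJ, for Cyp2a4 alone. Among BXD strains 11 of 56 were low for Cyp2b13 and 7 of 56 for Cyp2a4; among the 31 inbred strains these counts were 10 and 8. The strain BXD14/TyJ, low for both and at 7.13 TPM of Cyp2b9, 0.279 TPM of Cyp2b10 and 0.515 TPM of Cyp2a4, had the highest male-biased sum of the panel, 24853 CPM against a median of 1216.

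The parents of the main families differed in these genes. C57BL/6J held 167 TPM of Cyp2b9, 11.6 of Cyp2b13, 5.66 of Cyp2b10, 103 of Cyp2a4 and 70.0 of Cyp2a5. DBA/2J held 19.3, 0, 8.07, 7.41 and 905 TPM in the same order, so it was the lower parent for Cyp2b9, Cyp2b13 and Cyp2a4 and the higher for Cyp2a5. A/J held 386, 145, 21.7, 643 and 882 TPM, above C57BL/6J for each gene. The panel and diet tables were normalised separately, so the single C57BL/6J mouse of the panel and the 3 mice on 2% iron are not compared by a test.

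Many BXD strains lay outside the range of their parents. For Cyp2b9, 30 of 56 BXD strains were above both parents, 24 between and 2 below. For Cyp2b13, 36 were above both and 20 between, and for Cyp2a4, 35 were above, 17 between and 4 below. For Cyp2b10, 13 were between, 20 above and 23 below, and for Cyp2a5, 44 were between, 9 above and 3 below. Of the 20 AXB/BXA strains, those between A/J and C57BL/6J were 16 for Cyp2b9, 12 for Cyp2b13, 14 for Cyp2a4 and 16 for Cyp2a5, but 8 for Cyp2b10, with 8 below both parents and 4 above. Each parent is 1 mouse, so these counts carry its error.

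BXD strains were also compared with AXB/BXA strains in 1 fit, the families sharing C57BL/6J as a parent. edgeR called 0 of the 5 genes (1 at an unadjusted p under 0.05, 0 in DESeq2, and 0 without the BXD65 library) against 11.6% of 13794 genes tested. Cyp2b9 was 166 ± 71.3 TPM in BXD (SD, n = 56) and 242 ± 88.5 TPM in AXB/BXA (SD, n = 20), a log2 change of -0.53 (SE 0.200, adjusted p = 0.0710). The changes were -0.51 for Cyp2a4, -0.47 for Cyp2b13, -0.25 for Cyp2b10 and -0.02 for Cyp2a5, with adjusted p of 0.463 to 0.988. The neighbour Cyp2a22 was lower in BXD, at 52.3 ± 62.7 CPM against 158 ± 101 CPM (log2 change -1.60, adjusted p = 0.0154, edgeR).

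Relations between the genes across strains were tested on log2 CPM as Pearson's r and Spearman's rho, with 100000 permutations and p-values adjusted over 88 values of 60 relations. Where Cyp2b13 or Cyp2a4 split the strains, r was taken within a group. 26 values passed by r, 18 by rho and 16 by both. Among the pairs of the 5 genes 10 of 18 values passed by r, and between the 5 genes and 10 fixed partner genes 16 of 70. The smallest p that the permutations can give is 1e-05, which adjusts to 0.000147 for r.

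Cyp2b9 and Cyp2b13 were positively related over the panel, and Cyp2a4 with each in part of the strains. Cyp2b9 and Cyp2b13 had r = 0.60 and rho = 0.64 in the 88 strains high for Cyp2b13 (permutation, adjusted p = 0.000147 for r and 9.78e-05 for rho) and r = 0.63 in the 26 low strains (adjusted p = 0.00338). Without the 2 strains farthest from the median in each group these were 0.58 and 0.72. Within the high strains r was 0.58 in BXD, 0.56 in AXB/BXA and 0.71 in the inbred strains, and within the low strains 0.85 in BXD and -0.16 in the 10 inbred strains. Of the 31-base words of Cyp2b9, 19.6% also occur in Cyp2b13, and the part of shared reads in this relation was not tested. Cyp2b13 and Cyp2a4 had r = 0.46 in the 86 strains high for both (permutation, adjusted p = 0.000147; 0.47 without the 2 farthest strains) and r = 0.75 in the 16 low for both (adjusted p = 0.00506; 0.67 without). In strains high for both, r was 0.55 in BXD, 0.70 in AXB/BXA and 0.16 in the inbred strains, and in strains low for both 0.95 in 7 BXD and -0.35 in 6 inbred strains. In the 10 strains low for Cyp2b13 alone r was -0.15 (adjusted p = 0.791). Cyp2b9 and Cyp2a4 had r = 0.15 but rho = 0.45 in the 96 strains high for Cyp2a4 (permutation, adjusted p = 0.279 and 9.78e-05), with r = 0.48 in BXD, 0.71 in AXB/BXA and -0.19 in inbred strains. In the 18 strains low for Cyp2a4 their r was 0.63 (permutation, adjusted p = 0.0201).

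Cyp2a5 varied with Cyp2a4 and Cyp2b13 in the strains high for those genes. Its r was 0.52 with Cyp2a4 in the 96 strains high for Cyp2a4 (0.52 without the 2 farthest strains; 0.62 in BXD, 0.61 in AXB/BXA and 0.15 in the inbred strains) and 0.50 with Cyp2b13 in the 88 high strains (0.52 without; 0.53 in BXD, 0.45 in AXB/BXA and 0.59 in inbred strains), each with a permutation adjusted p of 0.000147. In the low strains neither passed. Cyp2a5 had r = 0.35 with Cyp2a4 in 18 strains (permutation, adjusted p = 0.279) and r = 0.10 with Cyp2b13 in 26 strains (adjusted p = 0.746; -0.55 in the inbred strains). Cyp2a4 and Cyp2a5 share 44.9 to 55.9% of their 31-base words. Cyp2b9 and Cyp2a5 had r = 0.27 (permutation, adjusted p = 0.0154; 0.32 without the 2 farthest strains) and rho = 0.44 over all 114 strains, with r = 0.41 in BXD, 0.34 in AXB/BXA and 0.059 in inbred strains.

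Cyp2b10 had fewer passing relations with the others. Its r with Cyp2b9 was 0.35 (permutation, adjusted p = 0.00198), falling to 0.31 without 129X1/SvJ and BTBR T<+> tf/J, with a rho of 0.21 that did not pass (adjusted p = 0.0797). With Cyp2a5 it was 0.17, with Cyp2a4 0.11 in strains high for Cyp2a4, and with Cyp2b13 0.11 in strains high for Cyp2b13, none passing (permutation, adjusted p = 0.161, 0.428 and 0.438). In the 18 strains low for Cyp2a4, Cyp2b10 and Cyp2a4 had r = 0.60, which passed by r (permutation, adjusted p = 0.0294) and not by rho (adjusted p = 0.0855), and r was 0.37 without BXD14/TyJ and I/LnJ. In the 26 strains low for Cyp2b13, Cyp2b10 and Cyp2b13 had r = 0.44 (adjusted p = 0.0691).

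**Figure D5:**
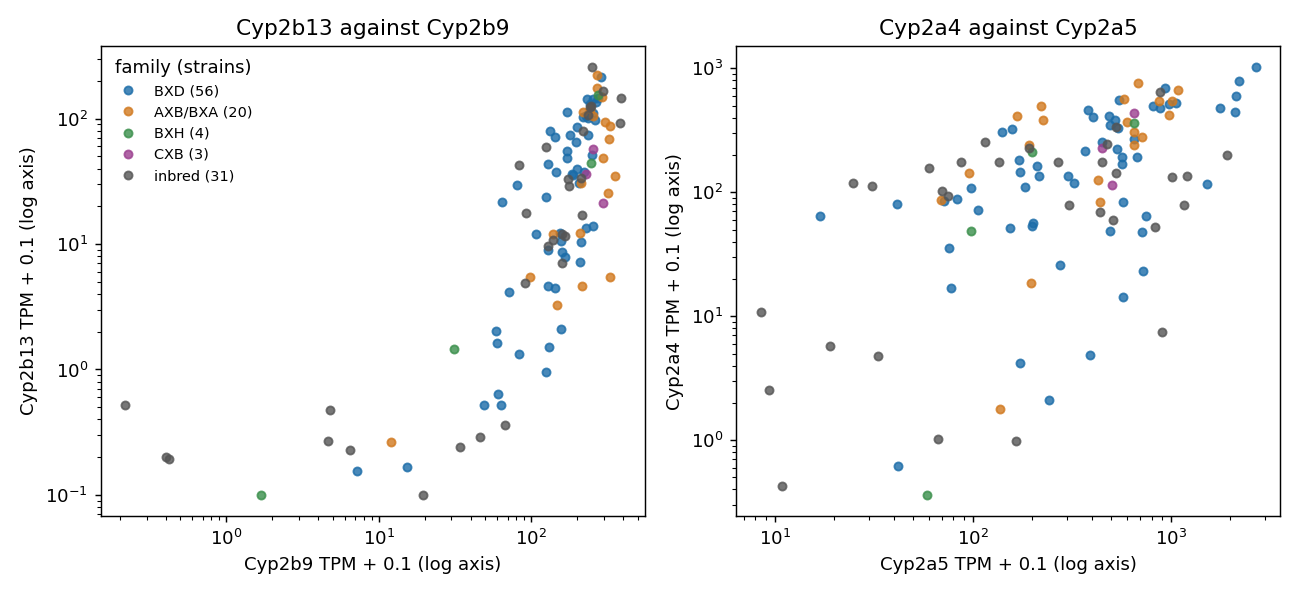
Cyp2b9 with Cyp2b13, and Cyp2a4 with Cyp2a5, across 114 strains on 2% iron (both axes TPM + 0.1, log axis), 1 point per strain, coloured by family. Cyp2b9 rises with Cyp2b13 in the strains high for Cyp2b13 (r = 0.60, computed on log2 CPM). The strains low for Cyp2b13 or Cyp2a4 lie toward the low end of those axes, with edges that meet the high strains.

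Among partner genes, Nr1i3 (CAR) varied with Cyp2b9 (r = 0.41, permutation, adjusted p = 0.000251; 0.43 without the 2 farthest strains; 0.34 in BXD, -0.087 in AXB/BXA and 0.48 in inbred strains), with Cyp2a5 (r = 0.33, adjusted p = 0.00257; 0.37 without; 0.49 in BXD, 0.30 in AXB/BXA and 0.22 in inbred strains) and with Cyp2b13 in the high strains (r = 0.38, adjusted p = 0.00257; 0.36 without; 0.45 in BXD, 0.42 in AXB/BXA and 0.39 in inbred strains). No value of Nr1i3 with Cyp2b10 passed. Cyp2a5 varied with Por, the electron donor (r = 0.44, permutation, adjusted p = 0.000147; 0.47 without the 2 farthest strains; 0.30 in BXD, 0.42 in AXB/BXA and 0.58 in inbred strains). It also varied with Alas1, the first enzyme of heme synthesis (r = 0.41, adjusted p = 0.000147; 0.42 without; 0.29 in BXD, 0.51 in AXB/BXA and 0.45 in inbred strains), and with Nqo1 (r = 0.33, adjusted p = 0.00257; 0.29 without; 0.11 in BXD, 0.21 in AXB/BXA and 0.44 in inbred strains), where rho did not pass (0.23, adjusted p = 0.0572). Cyp2b9 was inversely related to Hsd3b5, a male-biased steroid dehydrogenase gene (r = -0.31, permutation, adjusted p = 0.00493; -0.39 without), at -0.51 in BXD, -0.61 in AXB/BXA and -0.13 in inbred strains. Cyp2b9 also passed by r with Nr1i2 (0.34), Cux2 (0.33), Por (0.30) and Alas1 (0.30), at permutation adjusted p of 0.00225, 0.00383, 0.00683 and 0.00719. Cyp2a4 passed in its high strains with Por (0.31), Hsd3b5 (-0.29) and Nr1i2 (0.25), at 0.00973, 0.0193 and 0.0486. The rest were Cyp2a5 with Cux2 (0.23, 0.0435) and Cyp2b10 with Gstm3 (-0.26, 0.0207). By rho only Cyp2b9 with Nr1i2 and Alas1 and Cyp2a4 with Por passed among these. Without the 2 farthest strains Cyp2b10 with Gstm3 (r = -0.18, permutation, adjusted p = 0.136) no longer passed by r. Nor did Cyp2a4 with Nr1i2 (r = 0.25, permutation, adjusted p = 0.0505), while the others among these did. With Hamp, the gene of the iron hormone hepcidin, none of the 5 passed by r, and Cyp2b9 passed by rho (0.24, permutation, adjusted p = 0.0435). Within single families fewer values passed: 15 in BXD, 2 in inbred strains and 0 in AXB/BXA, which hold fewer strains. Without the BXD65 library 27 values passed over the whole panel.

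The genes most like each of the 5 were listed by Spearman's rho over 114 strains among 15694 other genes, as a description. For Cyp2b9 these were Atp23 (rho 0.86), Cyp2b13 (0.82), Slc47a1 (0.72), Chodl (0.72) and Cyp2a22 (0.71), with 3 predicted genes passed over. Atp23 lies on another chromosome, at chr10:126868427-126901355, and its rho with Cyp2b9 was 0.87 in BXD and 0.88 in inbred strains. For Cyp2b13 they were Cyp2b9, Atp23 (0.78), Olfr161 (0.74), Hao2 (0.74) and Cntn1 (0.72), behind the predicted pseudogene Gm29920 (0.95), named here after its value was seen, which lies at chr7:26099563-26100316, just past the end of Cyp2b13. For Cyp2a4 they were Cyp2b13 (0.66), Atp23 (0.65), Cyp2b9 (0.61), Trim24 (0.60) and Slc47a1 (0.59).

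Cyp2b10 had no close match, the highest being Kpna6 (0.47), Sult1d1 (0.44), Tdo2 (0.41), Slc25a32 (0.41) and Cyp3a25 (0.41). For Cyp2a5 they were the pseudogene Cyp2a21-ps (0.68), Nhlrc2 (0.67), Eif4g1 (0.65), Gys2 (0.64) and Abcg5 (0.63). Cyp2a21-ps holds 23.4% of the 31-base words of Cyp2a5 and overlaps Cyp2a22 on the opposite strand, and the strand setting used in counting is not given in the sources used here. The rho of Cyp2a5 with Nhlrc2 was 0.66 in BXD and 0.85 in inbred strains.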

How the data were processed

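Liver RNA of 15 diet mice and 115 panel mice was sequenced from stranded poly(A) libraries, per the labels' protocols. The authors deposited expected counts and TPM per Ensembl gene. The submitters' processing notes name kallisto 0.46 and mm10, and the strand setting and the joining of transcripts to genes are not given in the sources used here. The panel table holds 1 set of gene identifiers for all strains, and the effect of sequence differences between strains on their counts was not tested. Because kallisto apportions reads among similar transcripts, values of close copies depend on that step.

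Expected counts were rounded to whole numbers, where whole counts had been planned for, filtered with filterByExpr, TMM-normalised and tested with edgeR 4.0.16 (R 4.3.3, quasi-likelihood, all 5 diets in 1 fit, Benjamini-Hochberg adjustment, threshold 0.05). The script was tested on simulated data. CPM carried a prior count of 2 on the log2 scale. Depth was 9407880 to 20572879 counts, which for a gene of a few counts leaves counting error large. Alternatives were RLE factors, no filter, DESeq2 1.42.0, limma 3.58.1 on log2(TPM + 1) and log2(TPM + 0.1), 2 groups alone, close copies summed, each mouse left out, and panel settings. Strain relations used scipy 1.17.1, and a gene was split into 2 groups where Ashman's D exceeded 3 and the gain in BIC exceeded 10. Identity and motifs used Biopython 1.88 with RefSeq promoter windows.

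The 5 genes and all lists were chosen with earlier results of these data known. Besides the 5, the text names the tested Cyp2 neighbours, Nr1i3, Nr1i2 and Por, up to 3 called genes each way per list in 2% iron against 50 ppm with a mean of at least 1 CPM, the 5 most alike genes in the panel and the partners of the relations. In the diet study the p-values measure the spread between these mice. In the panel they measure the spread between strains, which were taken as independent. Strains of a family share parents, and close sublines, such as AXB19, AXB19a and AXB19b, entered the relations as separate strains. Sets of substrains were taken as 1 library only in a setting of BXD against AXB/BXA.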

Additional observations from a re-analysis of the deposited data

How the results depend on the processing

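The 5 genes' log2 changes kept their direction and side of the threshold, or moved by less than the replicate SD, in 343 alternative values, newly passed in 9, moved by more in 22 and reversed in 9. Of the 9 that newly passed, 3 did so without 500 ppm replicate 2. Cyp2b13 in cellulose against 500 ppm turned from -0.51 to 1.45 and 3.27 in limma on log2(TPM + 1) and log2(TPM + 0.1), and ranged from -1.08 to 7.17 with 1 mouse left out, the highest without 500 ppm replicate 2. That mouse stood out through these same genes, so the values without it are a description. Without it 4 of the 5 genes had an adjusted p under 0.05 in edgeR, against 28.9% of all genes tested. With all mice, 3 and 2 of the 5 genes passed in limma. For 500 ppm against 50 ppm the values with 1 mouse left out ranged from -1.64 to 5.79 for Cyp2b9 and from -0.59 to 7.68 for Cyp2b13, the lowest without that mouse. Cyp2b10 in 2% iron against chow turned to 0.16 and 0.18 in limma and ranged from -1.04 to 0.63 with 1 mouse left out, the highest without chow replicate 2. Cyp2a5 in BXD against AXB/BXA turned to 0.06 with sets of substrains as 1 library. The cause was not tested.

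Counts of genes called moved as follows. Cellulose against 500 ppm gave 3505, in limma 2139 and 2053, and 2222 with the 2 groups alone. Leaving out 1 mouse gave 2143 to 3989 there. Of the calls, 76.5% were higher in limma against 51.7%, with a median log2 change of 0.12 over all genes. 500 ppm against 50 ppm gave 2 in DESeq2. Cellulose against 2% iron gave 51 with no filter, 219 in DESeq2, 19 and 23 in limma, 23 with the 2 groups alone (1 of the 5 genes) and 0 to 212 with 1 mouse left out. 2% iron against 50 ppm gave 2127 (1155 higher, 972 lower), 1102 and 1057 in limma (717 higher and 385 lower in the first) and 1003 to 1640 with 1 mouse left out. 2% iron against chow gave 3087 (1607 and 1480), and 1808 and 1846 in limma (1256 and 552 in the first, median 0.10). Chow against 50 ppm gave 53, 144 in DESeq2, 14 and 19 in limma, 26 with the 2 groups alone and 4 to 62 with 1 mouse left out. BXD against AXB/BXA gave 1606, and 851 in limma.

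The relations gave 26 passing values, 15 within BXD, 0 within AXB/BXA and 2 within inbred strains. Within inbred strains r turned to -0.16 for Cyp2b9 and Cyp2b13 in the low strains, -0.19 for Cyp2b9 and Cyp2a4 in the high strains, -0.14 for Cyp2b13 and Cyp2b10, -0.35 for Cyp2b13 and Cyp2a4 in strains low for both, and -0.55 for Cyp2b13 and Cyp2a5 in the low strains. Within BXD it turned to -0.019 for Cyp2b13 and Cyp2b10. On log2(TPM + 1) it turned to 0.060 for Cyp2b13 and Cyp2a4 in strains low for the first alone. Within AXB/BXA it turned to -0.32 and -0.14 for Cyp2b10 with Cyp2a4 and Cyp2a5, to -0.087, -0.0072, -0.053 and -0.017 for Cyp2b9 with Nr1i3, Nr1i2, Por and Alas1, and to 0.11 for Cyp2b10 and Gstm3. No paired analysis was possible because the replicate numbers were given in accession order and pair no mice, and each panel strain but 129X1/SvJ has 1 mouse.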
